A study of Danio rerio with 5 samples.

Results

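Of the 26158 genes in the deposited zebrafish tables, 115 took no count in the first count column (count_1) in any of the 5 libraries and yet summed to at least 50 over the libraries in the widest column (count_all). Those 2 values chose the genes and are given here as a description. Each table has 3 count columns. The values of count_1 are whole, those of count_2 come in steps of 0.5, and those of count_all hold other fractions as well. The names of the columns are not explained in the sources used here. That the members were counted by multiply assigned reads is a reading of these values, and it was not tested against the reads. Of the 2653 genes with count_1 of 0 in every library, 827 had count_all above 0 and 712 of those stayed below 50. The members nearest the limit were ENSDARG00000091883 with a sum of 51.9, ENSDARG00000095575 with 51.8 and si:dkey-239j18.3 with 50.8. The genes just under it were ENSDARG00000057102 with 49.4, ENSDARG00000079579 with 48.8 and ENSDARG00000088314 with 48.5.

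The libraries were poly(A)-selected, strand-specific messenger RNA libraries, each from 15 pooled whole embryos at the shield stage, 6 hours after fertilization. MZdicer embryos (hu896/hu896) lack maternal and zygotic Dicer, the enzyme that cuts microRNA precursors. At the 1-cell stage they received 1 nl, from a stock at 25 uM, of a phosphorothioate form of an Ago2-processed miR-430 hairpin (3xPS hairpin), of the unmodified hairpin or of a miR-430 duplex. Untreated MZdicer embryos and untreated wild-type embryos of a mixed TU/AB/TL/TLF background complete the series. There was 1 library per group, strain differs between wild type and MZdicer along with genotype, and no mock-injected library is among the samples analysed here. The series asks whether trimmable and nontrimmable hairpins rescue the mutant. Differences between libraries below have no replicate check, and their intervals hold counting error only.

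In zebrafish the miR-430 family is made at the onset of zygotic transcription and drives the removal of many maternal transcripts. Dicer is bypassed when Argonaute itself cuts a hairpin precursor, after which the 3′ end is trimmed. The zebrafish genome holds many closely related gene copies, from an ancient genome duplication in teleost fish and from later local duplications, and a short read from a stretch that 2 annotated genes have in common cannot be assigned to one of them. A genome assembly that carries 1 gene as a pair of models has the same effect on reads.

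The libraries had 25395828 counts in count_all for the 3xPS hairpin, 24838528 for the hairpin, 26092225 for the duplex, 15332383 for MZdicer and 27117333 for wild type. The share of count_all outside count_1 was 2.88% to 3.04%. The smaller MZdicer total gives the widest counting intervals, and 3 counts amounted there to 0.196 CPM, which are counts scaled to a library's count_all total of 1e6. In the other libraries they amounted to 0.111 to 0.121 CPM. DICER1 stood at 22.5 CPM in the 3xPS hairpin library, 19.9 in the hairpin, 21.9 in the duplex, 22.1 in MZdicer and 34.2 in wild type. Counts summed over this gene say nothing of the mutated site.

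The members fell into classes by how their counts divided between the columns. In 49 of the 115, at least 95% of count_all was also in count_2, and in 30 of these the columns were equal in every library. In 27 members less than 5% was in count_2, and in 16 of these count_2 was 0 in every library. The other 39 lay between. The 49 held 91.6% of the members' summed counts, against 6.03% for the 39 and 2.32% for the 27. All 575 member values of count_2 were in steps of 0.5 (tolerance 1e-06), as were all 130790 values of count_2 over all genes.

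**Figure D1:**
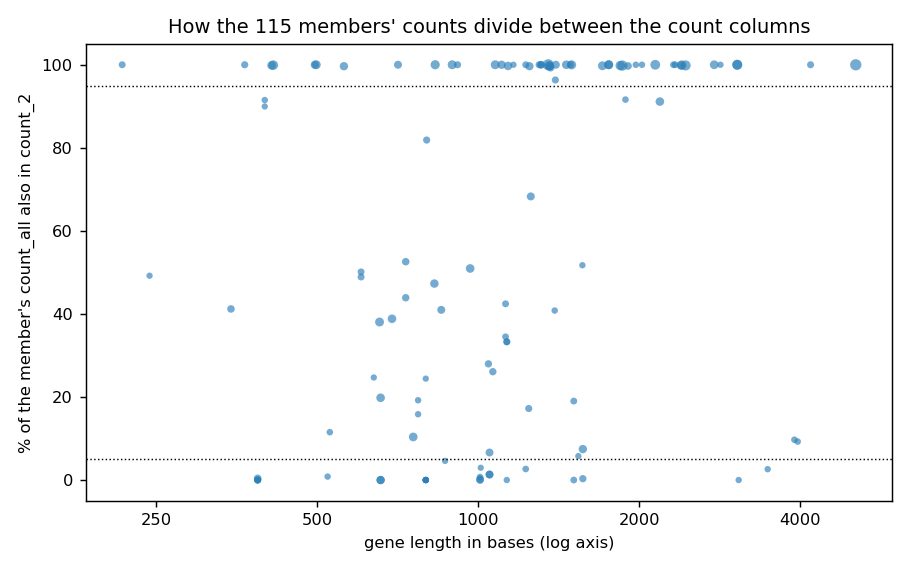
Each of the 115 points is a member, with gene length in bases on a log axis and the percent of its count_all that is also in count_2 on the other axis; larger points have larger summed counts, and dotted lines mark 5% and 95%. The 49 members at the top have a median length of 1394 bases and the 27 at the bottom one of 798 bases.

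Members were short and poorly annotated beside the tables as a whole. Their median length was 1106 bases, against 1803 bases over all genes, with a range of 216 to 5080 bases. A symbol was paired with 24 members (20.9%), against 71.9% of all genes. The length was a multiple of 3, as in a gene model without untranslated ends, in 76 members (66.1%), against 50.6% of all genes. This differed by class. It held for 26 of the 27 members with under 5% in count_2 (96.3%), for 26 of the 39 between (66.7%) and for 24 of the 49 with at least 95% (49.0%). The 49 had a median length of 1394 bases and 13 symbols, and the 27 had 798 bases and 5 symbols.

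Several members had the same length. There were 48 members that shared theirs with another member, and 6 lengths were held by at least 3 members each, 24 members in all. Equal lengths are common in the tables, where each of these 6 lengths was held by 20 to 34 genes. The share of all genes that have the length of another gene was not computed. The length of 798 bases had 8 members, whose levels together came to 3.51 CPM in the 3xPS hairpin library, 3.70 in the hairpin, 3.35 in the duplex, 4.49 in MZdicer and 3.51 in wild type. The 3 members of 657 bases summed to 13.8 CPM in the 3xPS hairpin library, 12.6 in the hairpin, 15.8 in the duplex, 13.7 in MZdicer and 22.0 in wild type. The largest value was that of MZdicer for the members of 798 bases and that of wild type for those of 657 bases.

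Some members had the same counts and may not be separate measurements. In 7 groups, 14 members had identical counts in all 5 libraries, and in 5 of the groups the lengths were equal as well. The most abundant such group was ENSDARG00000086099 and ENSDARG00000086371, both 3050 bases long. Each had 1159.5 counts in the 3xPS hairpin library, 915.5 in the hairpin, 1458.5 in the duplex, 504.5 in MZdicer and 1148.5 in wild type. DESI1, a desumoylating isopeptidase, had the counts and the 1358 bases of ENSDARG00000071552, and RGMB, a co-receptor for bone morphogenetic proteins, had those of ENSDARG00000074845 at 1311 bases. PARVA, the focal adhesion protein alpha-parvin, had the counts of ENSDARG00000073907, 19.5 in the 3xPS hairpin library, 18 in the hairpin, 16.5 in the duplex, 8 in MZdicer and 0.5 in wild type. The wild-type value of PARVA is less than 1 count, so that no fold is given. Keeping 1 gene of each group leaves 108 sets of counts. Some of these may not be separate either, as they are nearly equal. The counts of zgc:174320 and ENSDARG00000073745 differed by 0.0663% in summed absolute difference, and those of YARS2 and ENSDARG00000087823 by 0.947%.

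Together the members took a small part of each library, and that part differed between libraries. Their summed level was 1842 CPM in the 3xPS hairpin library, 1419 in the hairpin, 1194 in the duplex, 1950.3 in MZdicer and 968 in wild type. MZdicer was highest, the 3xPS hairpin stood near it, and wild type was lowest. This order did not hold without the pair of genes at the top. The 2 members with the highest levels held 63.5% of the sum in the 3xPS hairpin library, 54.3% in the hairpin, 44.0% in the duplex, 67.7% in MZdicer and 38.2% in wild type. Without them the other 113 members summed to 672 CPM in the 3xPS hairpin library, 649 in the hairpin, 669 in the duplex, 629.7 in MZdicer and 598 in wild type. In bulk embryos, fewer cells of a type and less RNA per cell cannot be told apart, here and in the values below. The median member stood at 1.46 CPM in the 3xPS hairpin library, 1.47 in the hairpin, 1.56 in the duplex, 1.76 in MZdicer and 1.29 in wild type, and no member was at 0 in any library.

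The member with the most counts was ENSDARG00000009946, 5080 bases long and without a symbol, which ranked 360 among all genes by summed count_all. Its counts nearly equal the shared counts of ENSDARG00000091448, described below, so its level and rank may be those of a divided share. The same limit holds for the levels of other members given here. It stood at 566 CPM in the 3xPS hairpin library, 443 in the hairpin, 367 in the duplex, 611 in MZdicer and 338 in wild type. It was highest in MZdicer and lowest in wild type, with the duplex nearest to wild type. The ratio of MZdicer to wild type was 1.81 with a 95% interval of 1.76 to 1.86, under the 2-fold limit used for calls.

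The next was si:ch211-139k8.4, 1352 bases long, whose role is not given in the sources used here and which ranked 562. It stood at 603 CPM in the 3xPS hairpin library, 328 in the hairpin, 158 in the duplex, 709 in MZdicer and 31.5 in wild type. These levels spread far more widely than those of the other leading members. Per length, this gene had the highest level of the 115 in MZdicer, at 525 RPKM (the authors' counts per kilobase of gene length, scaled to the same total), followed by ENSDARG00000009946 at 120.3 RPKM, NAA40 at 68.5 RPKM and ENSDARG00000006375 at 39.6 RPKM. In wild type it was below these 3, at 23.3 RPKM against 66.6 RPKM for ENSDARG00000009946, 68.1 RPKM for NAA40 and 50.04 RPKM for ENSDARG00000006375.

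**Figure D2:**
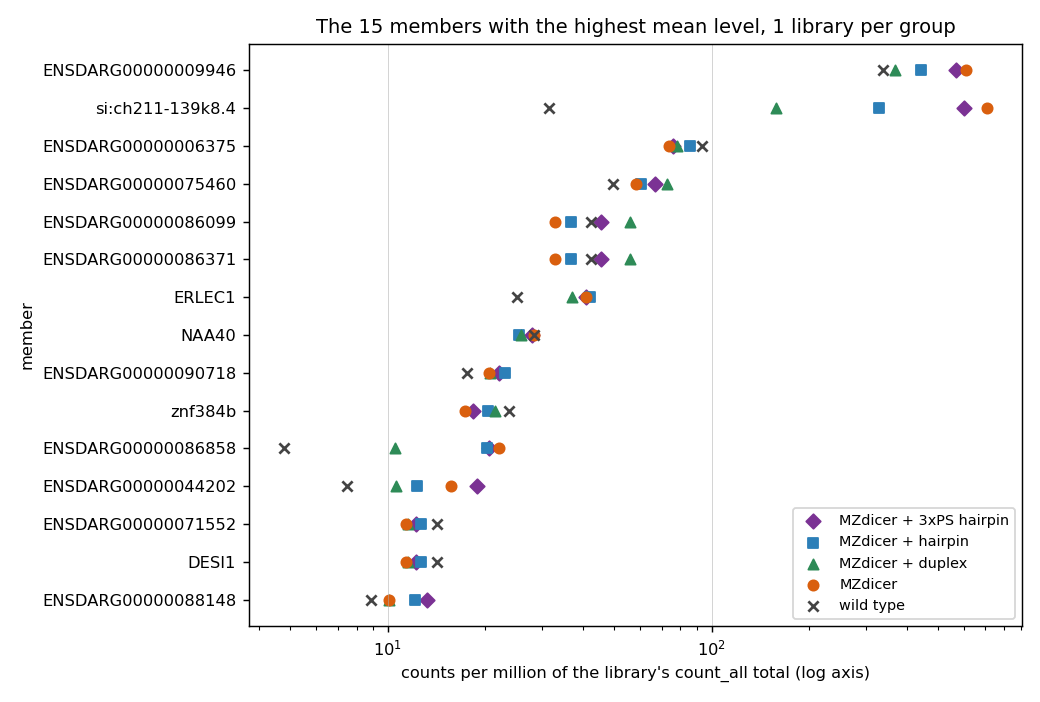
The 15 members with the highest mean level run down the page, with CPM on a log axis and 1 symbol per library. For si:ch211-139k8.4 the symbols spread between 709 CPM for MZdicer and 31.5 CPM for wild type, and for NAA40 between 25.5 CPM for the hairpin and 28.3 CPM for untreated MZdicer.

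NAA40, the acetyltransferase of histone N-termini, is represented by a model of 414 bases and stood at 27.8 CPM in the 3xPS hairpin library, 25.5 in the hairpin, 25.8 in the duplex, 28.3 in MZdicer and 28.2 in wild type. ERLEC1, a lectin of the endoplasmic reticulum known in mammals from protein degradation there, stood at 40.8 CPM in the 3xPS hairpin library, 42.0 in the hairpin, 36.9 in the duplex, 41.0 in MZdicer and 25.1 in wild type. The 4 MZdicer libraries were close together for ERLEC1 and wild type had the smallest value, with a ratio of MZdicer to wild type of 1.64 (95% interval 1.47 to 1.83) that was not called. The zinc finger gene znf384b stood at 18.3 CPM in the 3xPS hairpin library, 20.4 in the hairpin, 21.5 in the duplex, 17.3 in MZdicer and 23.6 in wild type. YARS2, the mitochondrial tyrosyl-tRNA synthetase, stood at 8.39 CPM in the 3xPS hairpin library, 9.80 in the hairpin, 11.0 in the duplex, 7.76 in MZdicer and 11.0 in wild type. For both genes MZdicer was lowest, with the 3xPS hairpin next to it, and neither was called. MRPS22, a protein of the small mitochondrial ribosomal subunit, stood at 3.27 CPM in the 3xPS hairpin library, 3.72 in the hairpin, 4.42 in the duplex, 3.59 in MZdicer and 4.86 in wild type.

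For many members a gene with equal or nearly equal shared counts could be found from the counts themselves. For each member, the gene was sought whose own surplus of count_all over count_1 came closest to the member's count_all in the 5 libraries. The search and its limit of 1% in summed absolute difference were chosen after the values were seen. It gave a count partner for 53 of the 115 members, which held 90.8% of the members' counts, and in 22 of these the match was equal in every library. The next closest gene was at least 2.71% off, with a median of 7.36%. The other 62 members had no such gene. A match shows equal shared counts and does not show where the reads came from.

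In 22 of the 53 the partner was another member, and in 31 it was a gene with count_1 counts of its own. Of these 31 partners, 27 were longer than the member, 3 were of equal length and 1 was shorter, and 16 had a symbol. The member was often the shorter model of the pair. The rule itself favours this, because a member has no count_1 and these partners have some. NAA40 had as its partner another identifier of the same symbol, ENSDARG00000024109, which is 2171 bases long and had 89.1% of its count_all in count_1. ENSDARG00000006375 was paired with NSFL1C, a cofactor of the p97 ATPase. ENSDARG00000090718 was paired with XRCC6, the Ku subunit that binds DNA ends. ENSDARG00000088148 was paired with FOXB1, a forkhead transcription factor, ENSDARG00000069337 with the Mediator subunit MED11, and ENSDARG00000053025 with LSM11, which acts in histone messenger RNA processing. ENSDARG00000087111 was paired with TRMT12, a transfer RNA modifying enzyme. The cardiac actin actc1c was paired with actc1a of the same family.

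Some of these partners had almost no counts of their own. There were 8 outside partners with under 5% of their count_all in count_1, among them MED11, with a count_1 sum of 13, and LSM11, with a sum of 1. ENSDARG00000009946, of 5080 bases, was paired with ENSDARG00000091448, of 5082 bases, whose count_1 summed to 10 over the 5 libraries. The partner of znf384b, ENSDARG00000090545, had the same 2401 bases and a count_1 sum of 3. ERLEC1 was paired with ENSDARG00000069042, with a count_1 sum of 32, and MRPS22 with ENSDARG00000090838, with a count_1 sum of 1.

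Some of the named genes are neighbours. Of the 39 symbols of members and partners, 31 matched a protein-coding gene in the RefSeq annotation of the GRCz12tu assembly, which is not the build of the files and was used for gene order only. Pairs within 5 protein-coding genes of each other numbered 4. DESI1 (desi1b) and XRCC6 were 1 step apart, ERLEC1 and the proteasome activator PSME4 (psme4a) 2 steps, GMEB2 and the kinase gene STK35 2 steps, and LSM11 and TRMT12 3 steps. Symbols were also tried with an added a or b, and 27 of the 31 matched 1 RefSeq gene only. A pair was kept if any of its matches lay within 5 genes. Whether desi1b and psme4a are the copies counted here was not tested. No share of neighbours among other genes was computed, so these are a description.

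Partners outside the set give a ratio that the rule did not use, from counts of count_1. Partners with at least 50 such counts over both libraries compared gave 13 to 15 pairs per comparison. For MZdicer against wild type, the member's ratio and the ratio of its partner had the same direction in 14 of 14 pairs, and their 95% intervals overlapped in all 14, with a median absolute difference of 0.13 on the log2 scale and a largest of 0.61. For the duplex against MZdicer the direction was the same in 9 of 13 pairs and the intervals overlapped in 12. The counts were 11 and 13 of 14 pairs for the hairpin against MZdicer, and 7 and 13 of 14 pairs for the 3xPS hairpin against MZdicer. These 3 comparisons share the MZdicer library. For the duplex against MZdicer, the pair with intervals apart was ENSDARG00000091195, at 1.04 (0.788 to 1.40), and its partner ENSDARG00000090667, at 0.669 (0.589 to 0.760).

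For the 3xPS hairpin against the hairpin, directions were the same in 8 of 14 pairs and intervals overlapped in 10. The member's ratio lay above the ratio of its partner in 12 of these 14 pairs, with a median difference of 0.23 on the log2 scale. For the hairpin against the duplex, the member's ratio lay below that of its partner in 14 of 15 pairs, with a median difference of -0.22, and the intervals overlapped in 11. For the 3xPS hairpin against the duplex it lay above in 9 of 14 pairs, with a median difference of 0.03. Against MZdicer, the member's ratio lay above in 13 of 14 pairs for the 3xPS hairpin, with a median difference of 0.20, in 5 of 14 pairs for the hairpin, with one of -0.06, and in 10 of 13 pairs for the duplex, with one of 0.16. For MZdicer against wild type it lay above in 4 of 14 pairs, with a median difference of -0.09. These comparisons share libraries. The sides counted and the differences come from ratios with 0.5 CPM added to each level. The ratios plotted and those quoted for single pairs have nothing added, so some pairs change sides there. SLC25A28 was counted above its partner for MZdicer against wild type, though the ratios with nothing added were 3.21 for the member and 3.67 for the partner. The same gap over all genes with counts outside count_1 was not computed, and the cause of the gaps was not tested.

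**Figure D3:**
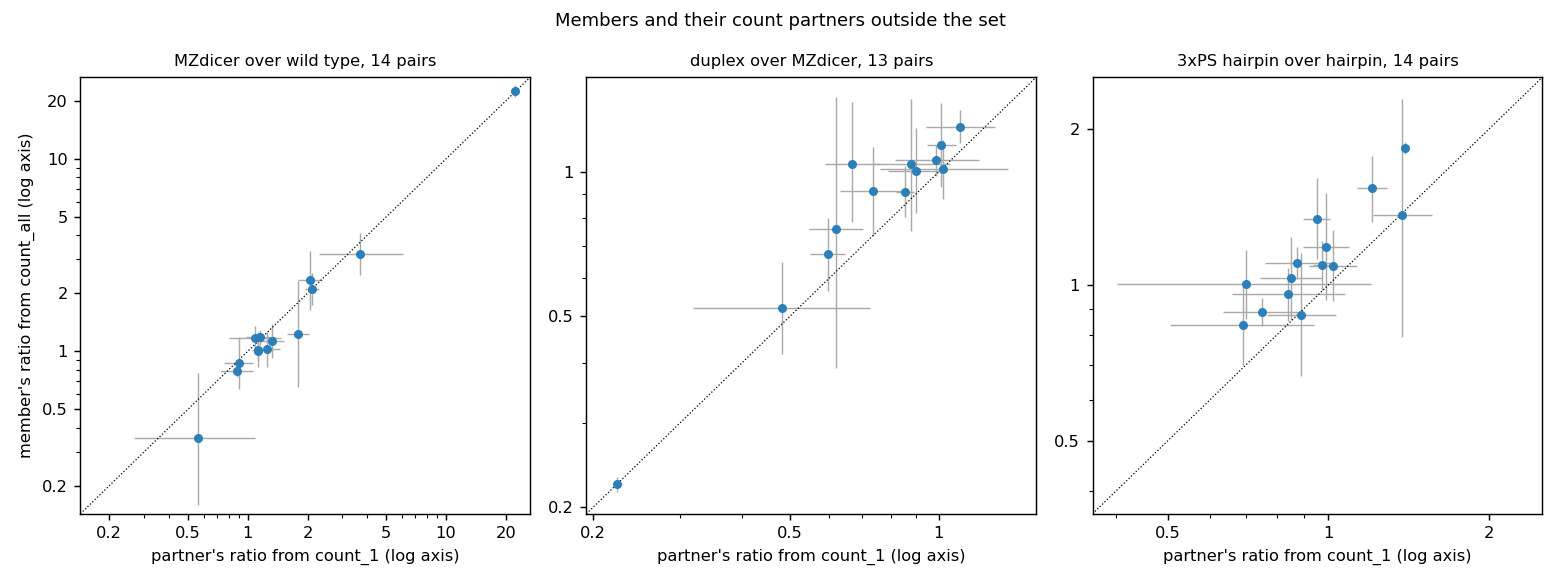
Each point is a member and its count partner outside the set, with the partner's ratio from count_1 across and the member's ratio from count_all upward, both on log axes, and 95% counting intervals as bars; the dotted line marks equal ratios. In the comparison of MZdicer over wild type all 14 pairs have overlapping intervals, and in the comparison of 3xPS hairpin over hairpin 12 of 14 points lie above the line.

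The pair with the widest range was si:ch211-139k8.4 and si:dkey-188c14.4, which is 3108 bases long and had 75.8% of its count_all in count_1. The partner's own level, scaled in the same way to the count_1 total, was 1781 CPM in the 3xPS hairpin library, 1279 in the hairpin, 503 in the duplex, 2244 in MZdicer and 100.2 in wild type. The order of the libraries was that of the member. MZdicer over wild type was 22.5 for the member (95% interval 21.0 to 24.2) and 22.4 for the partner (21.5 to 23.3). Duplex over MZdicer was 0.223 (0.215 to 0.232) for the member and 0.224 (0.219 to 0.229) for the partner.

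In the ratios that involve a hairpin library, the intervals of this pair lay apart, while those of most pairs overlapped. This pair had the most counts of those compared and so narrow intervals, and overlap is not comparable between pairs. Its log2 difference, member minus partner, was -0.30 for hairpin over MZdicer, where the pairs' median absolute difference was 0.10. It was 0.10 against 0.20 for 3xPS hairpin over MZdicer, and 0.40 against 0.23 for 3xPS hairpin over hairpin. Over the duplex it was -0.30 against 0.27 for the hairpin and 0.10 against 0.10 for the 3xPS hairpin. Hairpin over MZdicer was 0.462 (0.449 to 0.476) for the member and 0.570 (0.561 to 0.579) for the partner. The ratio of 3xPS hairpin to MZdicer was 0.850 (0.829 to 0.871) for the member and 0.793 (0.782 to 0.805) for the partner, and that of 3xPS hairpin to hairpin was 1.84 (1.79 to 1.89) for the member and 1.39 (1.37 to 1.41) for the partner. These intervals do not overlap, but they hold counting error in 1 library per group and no spread between embryos or preparations. With this pair included, the member's ratio lay below that of its partner in 9 of 14 pairs for hairpin over MZdicer. It lay above in 13 of 14 pairs for 3xPS hairpin over MZdicer and in 12 of 14 for 3xPS hairpin over hairpin. The levels of both genes had the order MZdicer, 3xPS hairpin, hairpin, duplex and wild type, from high to low.

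**Figure D4:**
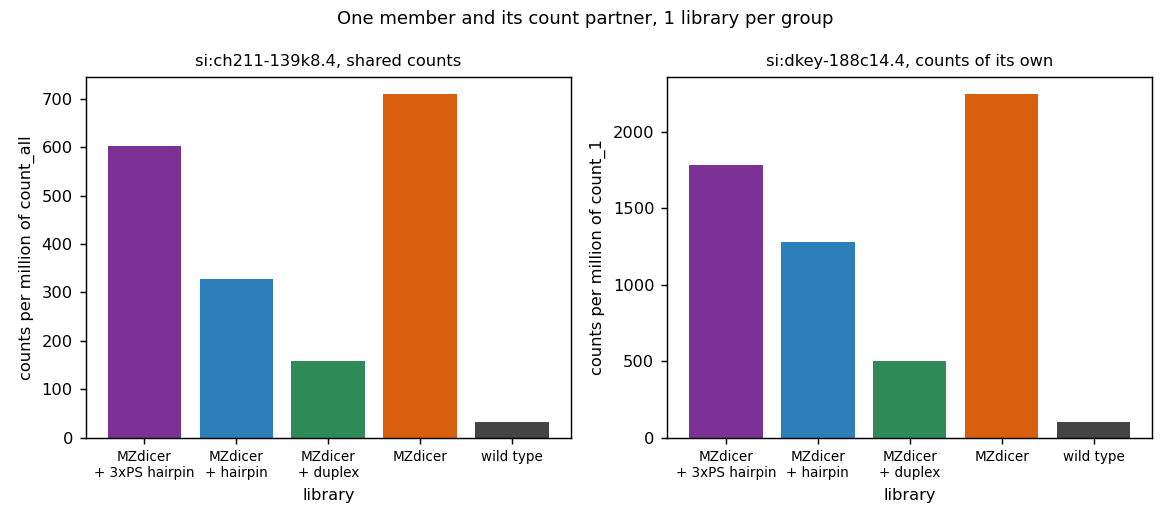
Bars give the level of si:ch211-139k8.4 in CPM of count_all (left) and of its partner si:dkey-188c14.4 in CPM of count_1 (right), 1 library per bar. In both panels MZdicer is highest, at 709 and 2244, and wild type lowest, at 31.5 and 100.2.

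For the comparison of libraries across the set, 67 of the 115 members had a mean of at least 1 CPM over the 5 libraries, as did 14576 genes in all. The other 48 members did not. A gene was called when its ratio of (CPM + 0.5) reached 2-fold and when equality lay outside its 95% interval, an exact conditional binomial one for the pair of rounded counts.

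In MZdicer against wild type, 11 of the 67 members were called higher (16.4%), where 17.1% of all genes were. No member was called lower, where 4.72% of all genes were. The share called higher is near that of all genes. Both counts depend on the limit on level. Some of the 11 passed it through the MZdicer libraries, such as ENSDARG00000091444 with 0.461 CPM in wild type. With a pseudocount of 1 CPM the members called higher numbered 7, and at a threshold of 1.5-fold they numbered 20, with 4 called lower. The median log2 ratio of the 67 members was 0.13, against 0.05 over all genes. With TMM factors the members' median was 0.09 and with DESeq2 size factors 0.04, scalings that lower the ratios of all genes in this comparison. Over all 115 members without the limit on level, 15 were called higher and 1 lower, with a median of 0.16.

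Besides si:ch211-139k8.4, those called higher stood between 0.457 and 7.45 CPM in wild type. Most of them had no symbol, as had 91 of the 115 members. ENSDARG00000091305 stood at 3.98 CPM in the 3xPS hairpin library, 3.72 in the hairpin, 2.15 in the duplex, 5.71 in MZdicer and 0.756 in wild type, a ratio of MZdicer to wild type of 7.55 (95% interval 4.56 to 12.6). ENSDARG00000091444 stood at 3.92 CPM in the 3xPS hairpin library, 4.29 in the hairpin, 2.86 in the duplex, 3.39 in MZdicer and 0.461 in wild type, a ratio of 7.36 (3.80 to 14.2). Both were lowest in wild type, and the injected libraries of ENSDARG00000091444 lay on both sides of untreated MZdicer. ENSDARG00000054894 stood at 8.39 CPM in the 3xPS hairpin library, 8.82 in the hairpin, 9.18 in the duplex, 6.59 in MZdicer and 1.03 in wild type, a ratio of 6.38 (4.16 to 10.1). ENSDARG00000086858 stood at 20.5 CPM in the 3xPS hairpin library, 20.2 in the hairpin, 10.5 in the duplex, 22.0 in MZdicer and 4.78 in wild type, a ratio of 4.60 (3.73 to 5.66). For ENSDARG00000086858 the duplex library lay between wild type and the other MZdicer libraries, while for ENSDARG00000054894 all 3 injected libraries lay above untreated MZdicer.

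The 6 others had ratios of MZdicer to wild type between 2.11 for ENSDARG00000044202 and 4.07 for ENSDARG00000096444. Of these, ENSDARG00000096444 and ENSDARG00000096443 were each other's closest match in counts, 4.99% and 5.23% apart, and may not be separate measurements. Among the 6, the one with a symbol was SLC25A28, a mitochondrial iron carrier. It stood at 9.49 CPM in the 3xPS hairpin library, 11.4 in the hairpin, 6.00 in the duplex, 11.5 in MZdicer and 3.60 in wild type, and its ratio of MZdicer to wild type was 3.21 (95% interval 2.48 to 4.13). Its partner ENSDARG00000074297 had a ratio of 3.67 (2.28 to 6.04) from count_1. ENSDARG00000044202 and ENSDARG00000091195 also had partners with at least 50 count_1 counts over both libraries. The ratios were 2.11 for the first against 2.10 for its partner ENSDARG00000086823, and 2.33 for the other against 2.06 for its partner ENSDARG00000090667. The partners of ENSDARG00000091444 and ENSDARG00000091537 had fewer such counts. These were 5 in MZdicer and 3 in wild type for ENSDARG00000038198, and 26 and 12 for ENSDARG00000052661. Of the 11 members, 9 were at least 2-fold over wild type in all 3 injected libraries too, and the lowest ratio of an injected library to wild type was 1.42. All these ratios share the wild-type library by which the 11 were called, so they are no separate check.

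Among members under the limit on level, ENSDARG00000091639 was the one called lower in MZdicer. It had 2.5 counts in the 3xPS hairpin library, 2 in the hairpin, 5.5 in the duplex, 2 in MZdicer and 46 in wild type. The MZdicer value is under the floor of 3 counts, so no exact ratio is given. The 95% interval of the ratio of MZdicer to wild type reached up to 0.294. The values of all 4 MZdicer libraries rest on few counts. actc1c, also under the limit, stood at 0.748 CPM in the 3xPS hairpin library, 0.906 in the hairpin, 1.09 in the duplex, 0.554 in MZdicer and 1.57 in wild type.

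**Figure D5:**
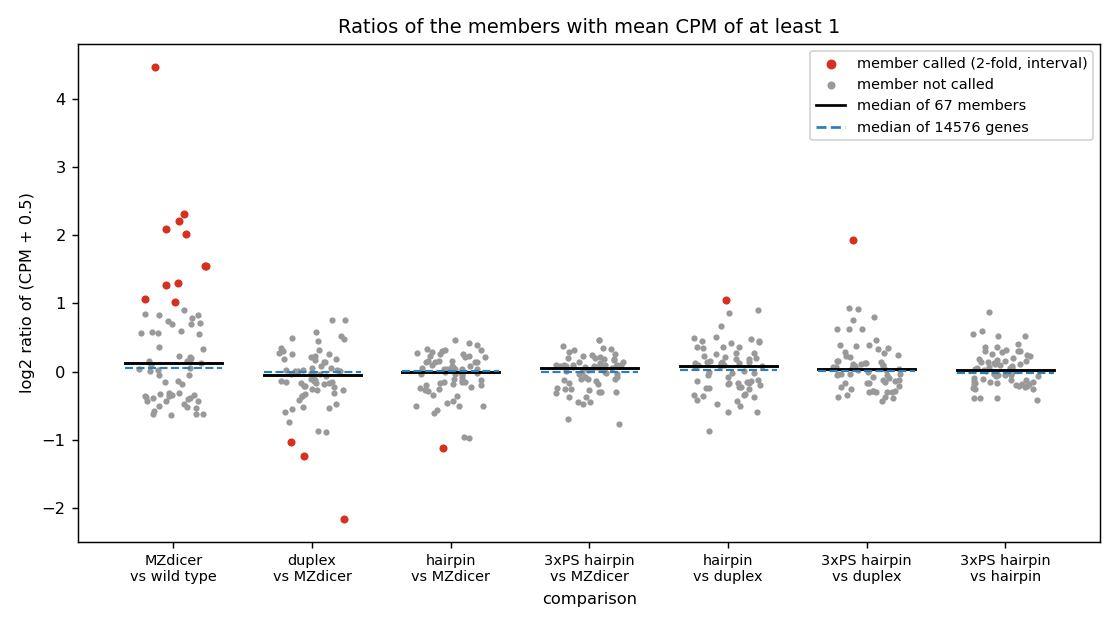
The log2 ratio of (CPM + 0.5) of the 67 members with a mean of at least 1 CPM is shown for 7 comparisons, with called members in red, the members' median as a black line and the median of 14576 genes as a dashed blue line. Called members number 11 for MZdicer against wild type and between 0 and 3 in the other comparisons, and the medians lie between -0.05 and 0.13.

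Few members were called between an injected library and untreated MZdicer. In the duplex library against MZdicer, 0 of the 67 members were called higher, where 1.41% of all genes were, and 3 were called lower (4.48%), where 5.88% of all genes were. The 3 were si:ch211-139k8.4, which was 4.48-fold lower in the duplex library (95% interval 4.32 to 4.64), ENSDARG00000091305, which was 2.66-fold lower (1.89 to 3.81), and ENSDARG00000086858, which was 2.09-fold lower (1.77 to 2.45). All 3 were among the 11 called higher in MZdicer, a comparison that shares the MZdicer library. SLC25A28 had a ratio of duplex to MZdicer of 0.520 (0.418 to 0.650) and was not called.

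In the hairpin library against MZdicer, 0 members were called higher, where 0.501% of all genes were, and 1 was called lower (1.49%), where 1.86% of all genes were. That member was si:ch211-139k8.4, 2.16-fold lower in the hairpin library (95% interval 2.10 to 2.23). In the 3xPS hairpin library against MZdicer no member was called in either direction, where 0.405% of all genes were called higher and 1.07% lower. ENSDARG00000091305 had a ratio of hairpin to MZdicer of 0.653 (95% interval 0.482 to 0.883) and one of 3xPS hairpin to MZdicer of 0.697 (0.515 to 0.933), neither of them called. ENSDARG00000086858 had ratios to MZdicer near 1 in both hairpin libraries, with intervals that include 1.

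Among the injected libraries, si:ch211-139k8.4 was again the member that was called. It was 2.07-fold higher in the hairpin than in the duplex library (95% interval 1.99 to 2.15) and 3.81-fold higher in the 3xPS hairpin than in the duplex library (3.68 to 3.94). It was the 1 of 67 members called higher (1.49%) in each, where 2.24% of all genes were called higher in the hairpin and 3.27% in the 3xPS hairpin library. None was called lower, where 0.604% and 0.508% of all genes were. Between the 3xPS hairpin and the hairpin no member was called, where 0.377% of all genes were called higher and 0.11% lower. Both comparisons with the duplex share its library. The members' median log2 ratios in the 6 comparisons without wild type lay between -0.05 and 0.09, against -0.02 to 0.03 over all genes.

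Of 33 lists of gene families chosen by the start of the symbol, 3 held a member each, namely actc1c among the actins, znf384b among the zinc finger genes and SLC25A28 among the solute carriers, and 3 lists matched no gene of the tables. The 91 members without a symbol could enter no list, so these lists do not show how many members belong to such families. Genes of some families had counts outside count_1 beside counts in count_1. The share of count_all outside count_1, summed over the 5 libraries, was 56.1% for the 4 ribonucleotide reductase genes, 37.9% for the 17 zona pellucida genes, 27.4% for the 4 ubiquitin genes and 14.3% for the 15 translation elongation factor genes. It was 11.3% for the 169 zinc finger genes, 10.4% for the 6 ferritin heavy chain genes and 7.89% for the 14 tubulin genes. It was smaller in the other lists that matched a gene, such as 0.262% for the 16 core histone genes and 0.0901% for the 85 ribosomal protein genes. Histone messenger RNA without a poly(A) tail is depleted by the selection of poly(A)+ RNA, and whether this bears on the histone share was not tested.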

How the data were processed

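Messenger RNA was sequenced from 5 libraries of 15 embryos, 1 per group, and samples were grouped by their labels. The submitters' processing notes name CASAVA 1.8.2, TopHat2 2.0.8 and the build Zv9 (danRer7). Not given in the sources used here are the counting tool, annotation release, use of strand and meaning of the column suffixes. The deposited tables hold, per the file headers, whole-number counts (count_1), estimated counts with fractions (count_2, count_all) and matching RPKM values. The authors scaled each RPKM column by length and by its own count column's total, which recomputation returned within rounding. Symbols came from a table that matched 18804 of 26158 identifiers, several of them in the capitals of human symbols.

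The members were all genes with count_1 of 0 in every library and a count_all sum of at least 50. CPM is count_all scaled to a column sum of 1e6. Ratios used a pseudocount of 0.5 CPM, and folds of named genes none. The pseudocount understates ratios of low genes. The limits were a mean of 1 CPM over the 5 libraries and 2-fold, with 95% exact conditional binomial intervals of counts rounded to whole numbers. Intervals and the floor of 3 counts cover counting error only. The reads carry no molecular identifiers, and divided counts rest on more reads than their value. No p-value was computed. Named genes were the 15 members with the highest mean CPM, up to 5 called members per direction and comparison, up to 3 members of each family list and 3 genes on each side of the limit; others, such as those with a symbol or a partner, were chosen after their values were seen.

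The members and lists were chosen with earlier results of these data known. The classes at 95% and 5%, the partner search, the gene-order check and the comparison of lengths were chosen after the values were seen. On simulated counts for 14576 genes per comparison, MZdicer against wild type had calls for 96 of 100 genes set at 4-fold, for 100 of 100 at 8-fold and for 3 unchanged genes. For the other 6 comparisons 97 to 100 and 100 of 100 were called, with 0 to 2 unchanged. The simulated counts were whole and held counting error only, so they give no rate of false calls for these libraries. Alternatives were TMM factors (edgeR 4.0.16 in R 4.3.3), DESeq2 1.42.0 size factors, other pseudocounts, thresholds and filters, RPKM, 1 gene per group of identical counts, and other limits on membership. Python 3.11.15 with pandas 2.3.3, NumPy 2.4.6 and SciPy 1.17.1 was used.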

Additional observations from a re-analysis of the deposited data

How the results depend on the processing

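Of 164 values recomputed under alternatives, 147 stayed within the limits set and 17 did not. The limits were 1.5 times for a count, and for a median the order-statistic interval over the members measured. TMM factors, DESeq2 size factors and keeping 1 gene per group of identical counts moved none of the counts of called members or their medians beyond these limits, though the members' median for MZdicer against wild type was 0.09 with TMM and 0.04 with DESeq2 size factors, against 0.13. Without the limit on level, 1 member was lower in MZdicer than in wild type and 2 were lower in the hairpin than in the duplex library; the set tested is then larger. With a pseudocount of 1 CPM, 7 members were higher in MZdicer than in wild type. With a pseudocount of 0.1 CPM, 3 were lower in the hairpin library than in MZdicer and 2 higher in the 3xPS hairpin than in the duplex library. From RPKM, 3 were lower in the hairpin library than in MZdicer. At a threshold of 1.5-fold, 20 were higher and 4 lower in MZdicer than in wild type, 2 higher and 6 lower in the duplex library than in MZdicer, 4 lower in the hairpin library than in MZdicer, and 2 lower in the 3xPS hairpin library than in MZdicer. At the same threshold 4 were higher and 3 lower in the hairpin than in the duplex library, 8 higher in the 3xPS hairpin than in the duplex library, and 2 higher in the 3xPS hairpin than in the hairpin library. A count_all sum of at least 200 left 55 members. A sum of at least 20 gave 167, and allowing count_1 up to 1% of count_all gave 157.

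No paired analysis was possible because each group has 1 library and there is no test between conditions. For the same reason no library was left out of a group. The planned search for the best protein match of each member was not run. The MZdicer library has the smallest total, and 48 members were under 1 CPM on average, where counting error is widest. The division of counts behind count_2 and count_all was not varied.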
